A study of Mus musculus with 9 samples.

Results

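The genes described here encode the subunits of the mitochondrial respiratory chain and of the ATP synthase, with the assembly factors that share their symbols. They were chosen by symbol alone: all genes of the array annotation beginning with Nduf, Uqcr or Atp5, the genes Sdha, Sdhb, Sdhc and Sdhd, and those beginning with Cox4 to Cox8, with Ndufs5 left out. The rule found 83 of 12393 genes, and 79 of the 83 passed the filter on dim signal and were tested among 7436 genes. By complex, the tested members were 33 of complex I, 5 complex I assembly factors, 4 of complex II, 8 of complex III, 12 of 16 of complex IV and 17 of the ATP synthase.

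RNA came from regulatory T cells of C57BL6 mice, separated with magnets by CD4 and CD25, on 9 Affymetrix expression arrays, 1 per sample. There were 3 arrays each of wild type mice and of mice whose Sirt1 was conditionally deleted by a Cre recombinase under CD4 (CD4-cre) or under Foxp3 (Foxp3-cre). SIRT1 removes acetyl groups from proteins using NAD, and the comparison asks what its loss does to regulatory T cells. A CD4 Cre acts in T cells at large, whereas a Foxp3 Cre acts in cells that express Foxp3, which regulatory T cells do. The sources used here do not give age, sex, the deleted part of Sirt1 or whether the wild type mice carried Cre or floxed alleles. Since no label names separate animals, the tests measure the variation among these samples, which may be technical. Values are log2 signals, on which a difference of 1 is a 2-fold change, each gene read by its brightest probe set.

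Complex I oxidises NADH and complex II oxidises succinate, and both pass electrons through ubiquinone to complex III, from which cytochrome c carries them to oxygen at complex IV. Complexes I, III and IV pump protons, and the ATP synthase lets them flow back through its rotating c ring to make ATP. Regulatory T cells are known to rely more on mitochondrial respiration than activated conventional T cells do. SIRT1 is known in other tissues as a deacetylase of PGC-1alpha, a coactivator of nuclear genes for mitochondrial proteins.

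Wild type replicate 2 was unlike the other 8 arrays. It correlated with them at 0.982 to 0.987 over all probe sets, against 0.992 or more among the others, and for beta-actin its 5' probe set lay at -1.53 relative to the 3' one, against -0.68 to -0.45 elsewhere. The main results are also given without it. Sirt1, read by 1 probe set, was at 7.91, 6.77 and 7.90 in wild type, against 7.69, 7.59 and 7.59 for CD4-cre and 7.66, 7.54 and 7.47 for Foxp3-cre. Its change in Foxp3-cre was 0.028 (limma adjusted p = 0.958), and -0.35 (adjusted p = 0.0301) without wild type replicate 2. In CD4-cre it did not pass either way, at 0.096 (adjusted p = 0.882) and at -0.28 (adjusted p = 0.0730) without that array. A probe set outside the deleted part would check nothing. Foxp3, which defines the labelled cell type, was also read by 1 probe set. It was at 9.16 to 9.69 on the wild type and CD4-cre arrays. On the 3 Foxp3-cre arrays it was at 2.67, 3.38 and 2.83, below the signal threshold of 4.979. Whether the whole Foxp3 RNA or only the part read by this probe set was low there was not tested. Cd4 and Il2ra, which encodes CD25, were above the threshold on all 9 arrays. Markers of neutrophils and the cell cycle also differed by group: 6 of 10 neutrophil markers and 11 of 29 cell cycle genes rose in Foxp3-cre against wild type. Of all genes tested, 3.36% were called in that comparison, up or down. The mean log2 signal over the neutrophil list was 7.78 to 8.75 in wild type, against 8.23 to 9.08 for CD4-cre and 9.16 to 10.14 for Foxp3-cre. For the cell cycle list it was 7.13 to 7.61, 7.68 to 7.78 and 7.92 to 8.73. For 7 tested monocyte and macrophage markers, of which C1qb rose, it was 6.85 to 7.39, 6.58 to 7.81 and 7.52 to 8.98. For 8 T cell markers, of which 0 were called, it was 10.52 to 10.71, 10.60 to 10.65 and 10.58 to 10.65. None of 5 B cell, 2 CD8 T cell and 1 erythroid markers tested was called. The mean over the B cell list was 6.99 to 7.69 in wild type, against 7.74 to 7.78 for CD4-cre and 7.10 to 8.71 for Foxp3-cre. For the CD8 T cell list it was 5.37 to 5.64, 5.31 to 5.76 and 5.71 to 6.13. The erythroid marker read 4.85 to 5.76, 4.80 to 5.47 and 4.79 to 6.81. Of 10 regulatory T cell markers Foxp3 fell in Foxp3-cre. Tnfrsf4, from the same list, rose in both knockouts without wild type replicate 2, by 0.43 for CD4-cre and 0.34 for Foxp3-cre (adjusted p = 0.0363 and 0.0426). The mean over that list was 9.13 to 9.23 in wild type, against 9.32 to 9.35 for CD4-cre and 8.55 to 8.68 for Foxp3-cre. Foxp3 is in this list and changed by -6.44 in Foxp3-cre, so this mean does not show a fall of the other markers. The median over the list was 9.26 to 9.62 in wild type and 9.26 to 9.37 in Foxp3-cre. The part of these differences in the results was not tested.

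Against wild type, most members stood slightly higher in both knockouts and did not pass the test. Cox7a2l, whose protein in its long form joins complexes III and IV into supercomplexes, fell in Foxp3-cre. It was the 1 member called with all 9 arrays. In CD4-cre 56 members were higher and 23 lower, with a median log2 change of 0.080 against 0.026 over all genes tested. In Foxp3-cre 60 were higher and 19 lower, with a median of 0.10 against 0.0061. Leaving wild type replicate 2 out, the counts were 60 higher and 19 lower in CD4-cre (median 0.072, against 0.0034 over all genes) and 61 and 18 in Foxp3-cre (median 0.085, against -0.015). Leaving out wild type replicate 1 instead gave a CD4-cre median of 0.14, and leaving out replicate 3 a Foxp3-cre median of 0.063. In bulk RNA, fewer cells of a type and less RNA per cell cannot be told apart.

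A gene was called changed at an adjusted p below 0.05 (limma, Benjamini-Hochberg over 7436 genes). In CD4-cre against wild type 0 of the 79 members passed, where 0.659% of all genes tested did. In Foxp3-cre against wild type 1 member, Cox7a2l, fell and 0 rose, beside 3.36% of all genes. Without wild type replicate 2, 1 member (Cox7a2l, lower) was called in CD4-cre, beside 2.57% of all genes. The same exclusion gave 2 members in Foxp3-cre, Cox7a2l lower and Ndufa8 higher, beside 7.63%. For the mean of both knockouts against wild type the counts were 1 (Cox7a2l), beside 2.26%, and 2 (Cox7a2l and Ndufa8) without that array, beside 5.37%. In each of these 6 comparisons the share of members called was below that of all genes. Other arrays and settings moved the counts as well. Leaving out wild type replicate 1, 8 members were called in Foxp3-cre (7 higher), or 10.1%, beside 5.88% of all genes, and 6 for the mean of both knockouts, or 7.59%, beside 3.25%. Without Foxp3-cre replicate 2, or without Foxp3-cre replicate 3, 0 were called in Foxp3-cre. With arrays weighted by the inverse of their estimated variance, 21 members (26.6%) were called in CD4-cre, beside 17.5% of all genes. In Foxp3-cre it was 16 (20.3%), beside 20.7%. For the mean of both knockouts that weighting gave 24 (30.4%), beside 21.6%.

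At an unadjusted p below 0.05, 11 members were higher and 1 lower in CD4-cre, beside 7.38% of all genes higher and 6.70% lower (14.1% in all). In Foxp3-cre 15 were higher and 1 lower, beside 10.5% and 10.8% (21.3% in all). Members whose 3 CD4-cre arrays all lay above all 3 wild type arrays numbered 18, or 22.8%, where 11.9% of all genes did so. Only 2 (Ndufa2 and Cox7a2l) lay wholly below, where 9.16% of all genes did. For Foxp3-cre 12 members, or 15.2%, lay wholly above and 2 (Uqcrh and Cox7a2l) wholly below, beside 11.1% and 12.2% of all genes. The knockouts share the wild type arrays, so their changes are not independent of each other.

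**Figure D1:**
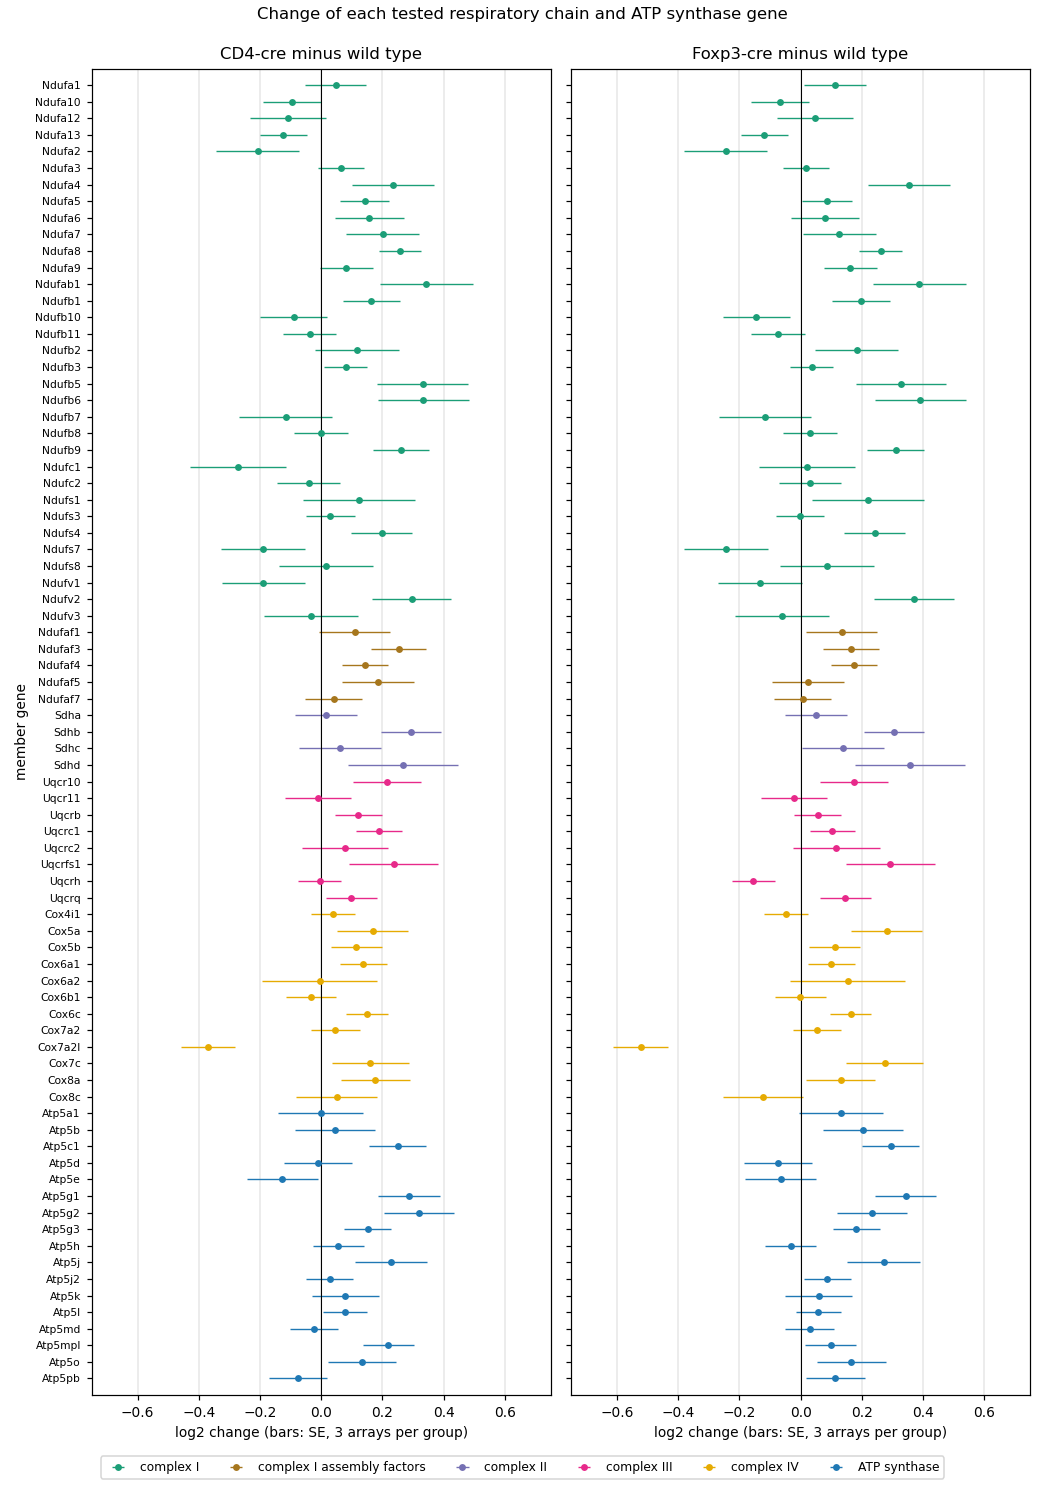
Log2 change against wild type of each of the 79 tested members, in CD4-cre (left) and Foxp3-cre (right). Points are the fitted changes and bars their SE, coloured by complex, with 3 arrays per group. Most points lie slightly to the right of 0, and Cox7a2l lies farthest to the left in both panels, at -0.37 and -0.52.

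Cox7a2l encodes a protein related to a complex IV subunit, also called SCAF1, which in its long form attaches complex IV to complex III. Mouse strains carry long and short forms of this protein, and C57BL/6 is known for a short one. What the form in these mice does was not tested. On the log2 scale it read 10.83, 11.08 and 10.79 in wild type, against 10.55, 10.54 and 10.49 for CD4-cre and 10.33, 10.39 and 10.42 for Foxp3-cre. The 3 groups did not overlap, with wild type highest and Foxp3-cre lowest. In Foxp3-cre it fell by 0.52 (SE 0.09, limma adjusted p = 0.0211), a 1.44-fold difference, and by 0.43 (adjusted p = 0.00782) without wild type replicate 2, which was its highest array. In CD4-cre the change was -0.37 (SE 0.09, adjusted p = 0.12), and -0.28 (adjusted p = 0.0497) without that array. Between the knockouts the difference was -0.15 (SE 0.09, adjusted p = 0.574). The call in Foxp3-cre was lost without Foxp3-cre replicate 2 (-0.53, adjusted p = 0.0510) or Foxp3-cre replicate 3 (-0.54, adjusted p = 0.0621), and with only the compared groups in the fit (adjusted p = 0.111). Which allele of Cox7a2l each group carried was not tested.

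All 3 probe sets of Cox7a2l gave the same order of groups without overlap. The second read 10.62, 10.57 and 10.52 in wild type, against 10.21, 10.08 and 10.16 for CD4-cre and 9.88, 9.94 and 9.97 for Foxp3-cre. Here wild type replicate 2 was not the highest array, and the change in Foxp3-cre was -0.64 (limma adjusted p = 0.00572 over 12385 probe sets). The third read 9.95, 10.01 and 9.83 in wild type, against 9.75, 9.62 and 9.61 for CD4-cre and 9.35, 9.42 and 9.45 for Foxp3-cre. It changed in Foxp3-cre by -0.53 (adjusted p = 0.0176). In CD4-cre these probe sets stood at -0.42 (adjusted p = 0.0506) and -0.27 (adjusted p = 0.198).

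**Figure D2:**
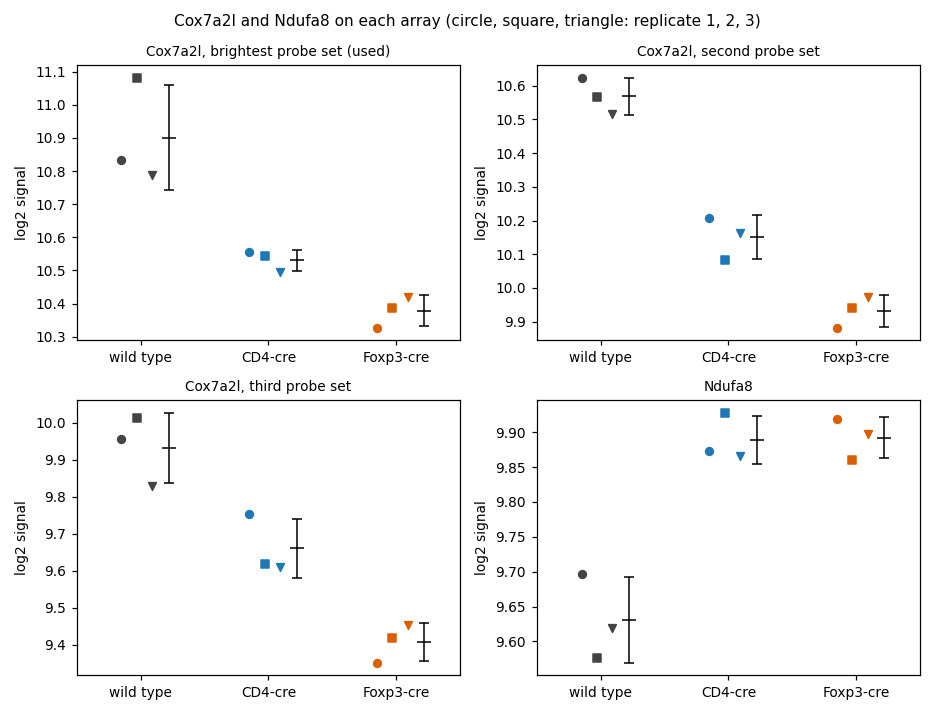
Log2 signal of the 3 Cox7a2l probe sets and of Ndufa8 on the 9 arrays, by group. Circles, squares and triangles are replicates 1, 2 and 3, and the bars are group mean and SD of 3 arrays. Every Foxp3-cre value of Cox7a2l lies below every CD4-cre value, and these below every wild type value, while for Ndufa8 both knockouts lie above wild type.

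Cox7a2l lies on chromosome 17, as 1 of 6 members there. Of the 5 nearest tested genes on either side, 0 were called in Foxp3-cre with all 9 arrays in limma. Their changes there ran from -0.38 for Ppm1b to 0.25 for Hnrnpll, against -0.52 for Cox7a2l. Leaving out wild type replicate 2, Pkdcc rose by 0.27 (adjusted p = 0.0474) and Mta3 fell by 0.46 (adjusted p = 0.0321), the nearest tested gene on each side of Cox7a2l. Lrpprc, 4 tested genes away, encodes a stabiliser of mitochondrial messenger RNA and stood at 0.23.

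**Figure D3:**
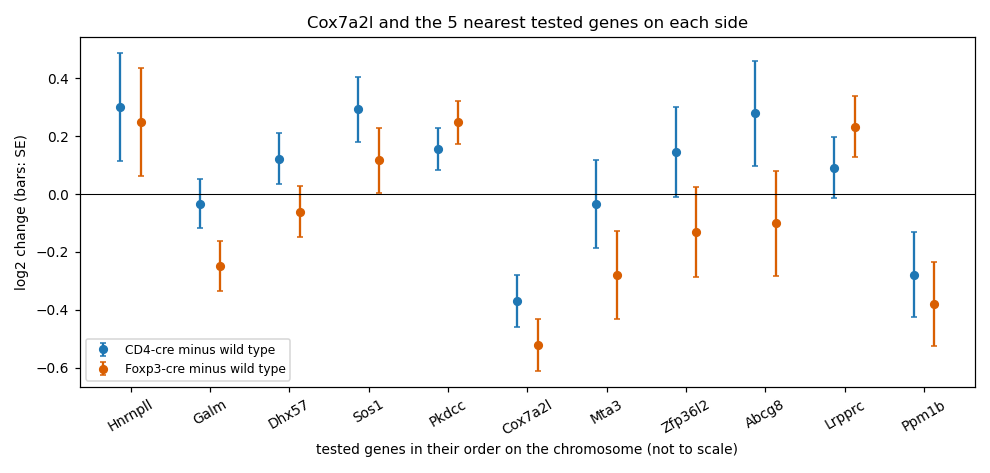
Log2 change against wild type of Cox7a2l and the 5 nearest tested genes on each side, in chromosome order but not to scale, for CD4-cre and Foxp3-cre. Bars are SE of the fitted change. The Cox7a2l points are the lowest of the 11 genes in both comparisons, and neighbours lie on both sides of 0.

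Ndufa8, an accessory subunit of complex I on its intermembrane space side, was called in Foxp3-cre without wild type replicate 2 but not with all 9 arrays weighted alike. Its signals were 9.70, 9.58 and 9.62 in wild type, against 9.87, 9.93 and 9.87 for CD4-cre and 9.92, 9.86 and 9.90 for Foxp3-cre. All 6 knockout arrays lay above all 3 wild type arrays, and the knockouts overlapped each other. The change was 0.26 (SE 0.07) in each knockout, with limma adjusted p = 0.149 in CD4-cre and 0.0752 in Foxp3-cre. Without wild type replicate 2 it was 0.23 in each, with adjusted p = 0.0700 and 0.0478. With 9 arrays weighted by the inverse of their estimated variance it passed in both (adjusted p = 0.00943 and 0.0115).

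Promoters were searched for motifs of known regulators of respiratory chain genes. The promoters shown are those of Cox7a2l and Ndufa8, the members called with 9 arrays or without wild type replicate 2. Each runs from 250 bases before to 50 after the gene start, from RefSeq on GRCm38.p6, 5′ to 3′ on the gene's strand, with motif matches in capitals. Cox7a2l lies on the minus strand at chr17:83514284-83514583, and Ndufa8 on the minus strand at chr2:36049289-36049588.
Cox7a2l: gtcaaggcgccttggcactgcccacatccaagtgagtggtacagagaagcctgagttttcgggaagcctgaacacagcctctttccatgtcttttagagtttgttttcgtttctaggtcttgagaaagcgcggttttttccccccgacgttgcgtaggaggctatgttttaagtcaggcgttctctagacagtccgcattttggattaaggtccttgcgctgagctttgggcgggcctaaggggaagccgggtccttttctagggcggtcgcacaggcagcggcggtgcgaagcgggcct
Ndufa8: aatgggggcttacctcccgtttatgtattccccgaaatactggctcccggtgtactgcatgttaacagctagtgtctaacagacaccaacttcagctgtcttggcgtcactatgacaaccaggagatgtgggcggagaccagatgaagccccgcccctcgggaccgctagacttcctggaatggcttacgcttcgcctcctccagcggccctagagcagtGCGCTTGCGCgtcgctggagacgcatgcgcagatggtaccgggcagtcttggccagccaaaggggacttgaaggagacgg
The motifs searched on both strands were, for NRF1, GCGC then A then TGCGC and a looser form with any base in place of that A, which contains the strict one, CCGGAAG for ETS factors such as GABPA, AANATGGC for YY1 and AAGGTCA for ERR alpha. The Ndufa8 window held 1 match to the looser NRF1 motif, and the Cox7a2l window held none of the motifs. Promoters were matched for 69 members. The looser NRF1 motif was found in 14 of them (20.3%), against 4.78% of 27025 promoters in the table and 12.3% of the 6111 promoters of genes tested. CCGGAAG was found in 17 (24.6%), against 9.12% and 21.2%, and AANATGGC in 14 (20.3%), against 6.23% and 9.95%. AAGGTCA was found in 6 (8.7%), against 4.66% and 3.08%, and the strict NRF1 motif in 6 (8.7%), against 0.977% and 2.26%. A match is only a run of letters in this window.

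In complex I, whose hydrophilic arm oxidises NADH and reduces ubiquinone and whose membrane arm pumps protons, 20 of 33 members were higher in CD4-cre and 23 in Foxp3-cre, with medians of 0.065 and 0.079. The 6 core subunits tested split evenly in Foxp3-cre, 3 higher and 3 lower. Ndufv2, an iron-sulphur subunit of the NADH-oxidising module, read 10.21, 9.66 and 10.04 in wild type, against 10.28, 10.30 and 10.23 for CD4-cre and 10.45, 10.27 and 10.31 for Foxp3-cre. Both knockouts lay wholly above wild type, by 0.30 (SE 0.13, limma adjusted p = 0.346) and 0.37 (SE 0.13, adjusted p = 0.144), which did not pass, and by 0.14 and 0.22 without wild type replicate 2. Its other probe sets gave 0.094 and -0.058 for CD4-cre, and 0.089 and 0.070 for Foxp3-cre. Ndufs7, an iron-sulphur subunit next to the ubiquinone site, was 9.62, 10.14 and 9.62 in wild type against 9.49 to 9.67 on the 6 knockout arrays. Its high value was wild type replicate 2, and its changes of -0.19 and -0.24 were -0.014 and -0.069 without that array.

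Among the accessory subunits of complex I, Ndufab1 and Ndufb6 had the largest changes and neither passed. Ndufab1, the mitochondrial acyl carrier protein, read 9.75, 9.08 and 9.44 in wild type, against 9.75, 9.87 and 9.68 for CD4-cre and 9.94, 9.78 and 9.72 for Foxp3-cre. Ndufb6, in the membrane arm, read 9.77, 9.07 and 9.40 in wild type, against 9.76, 9.77 and 9.70 for CD4-cre and 9.87, 9.75 and 9.79 for Foxp3-cre. In both genes wild type replicate 2 was lowest and replicate 1 lay within the knockout arrays. The changes in Foxp3-cre were 0.39 for each (limma adjusted p = 0.183 for Ndufab1 and 0.175 for Ndufb6), and 0.22 for each without wild type replicate 2. Another probe set of Ndufab1 gave -0.067 and another of Ndufb6 0.14 in that comparison, and -0.11 and -0.16 in CD4-cre. Ndufb9, in the membrane arm, lay wholly above wild type in Foxp3-cre, by 0.31 (SE 0.09, adjusted p = 0.0986). So did Ndufs4, whose loss in mice causes a Leigh-like disease, by 0.24 (SE 0.10, adjusted p = 0.204), and by 0.15 without wild type replicate 2. Ndufa4 carries a complex I symbol but is now placed in complex IV, and it stood at 0.35 (SE 0.13, adjusted p = 0.174) there and at 0.20 without that array. Ndufa3, with the highest mean signal of the complex I members, stood at 0.065 for CD4-cre and 0.018 for Foxp3-cre, and at 0.030 and -0.017 without it.

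The 5 complex I assembly factors, which build the complex and are absent from the mature enzyme, were all higher in both knockouts with 9 arrays, and 0 passed. Ndufaf3, which acts with Ndufaf4 on the ubiquinone-binding module, read 7.68, 7.35 and 7.49 in wild type, 7.76 on each CD4-cre array and 7.68, 7.64 and 7.69 in Foxp3-cre. CD4-cre lay wholly above wild type, by 0.25 (SE 0.09, limma adjusted p = 0.261). Ndufaf4 read 8.20, 8.12 and 8.08 in wild type, against 8.25 to 8.34 for CD4-cre and 8.25 to 8.39 for Foxp3-cre. Its changes were 0.14 and 0.17 (adjusted p = 0.421 and 0.225), and another probe set gave 0.042 in CD4-cre. Leaving out wild type replicate 2, 3 of the 5 were higher in Foxp3-cre, with a median of 0.028 instead of 0.13, and 4 of the 5 in CD4-cre, with 0.065 instead of 0.14. Ndufaf5, which modifies an arginine of NDUFS7, stood at 0.024 in Foxp3-cre with that array and at -0.098 without it.

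Complex II, the succinate dehydrogenase that also belongs to the tricarboxylic acid cycle, was set apart by 1 array. All 4 subunits read lowest on wild type replicate 2, by 0.29 to 0.66 below the mean of the other wild type arrays. With 9 arrays all 4 were higher in both knockouts, with medians of 0.16 and 0.22, and without that array 2 were higher and 2 lower in each, with medians of -0.026 and 0.052. Sdhb, the iron-sulphur subunit, read 10.03, 9.65 and 9.84 in wild type, against 10.17, 10.13 and 10.11 for CD4-cre and 10.20, 10.11 and 10.14 for Foxp3-cre. It lay above wild type on all 6 knockout arrays, by 0.29 (SE 0.10, limma adjusted p = 0.231) and 0.31 (SE 0.10, adjusted p = 0.116), and by 0.20 and 0.21 without wild type replicate 2. Sdhd, a membrane anchor, read 9.26, 8.41 and 8.89 in wild type, against 9.12 to 9.13 for CD4-cre and 9.07 to 9.34 for Foxp3-cre, and its groups overlapped. Its change in Foxp3-cre was 0.36 (SE 0.18, adjusted p = 0.281) and 0.14 without that array, and another probe set gave 0.010 there and -0.36 in CD4-cre. Sdha, the flavoprotein, stood at 0.050 in Foxp3-cre with that array and at -0.063 without it, and its other probe set at -0.13. Sdhc, the other anchor, stood at 0.14 with that array and -0.033 without it.

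In complex III, which passes electrons from ubiquinol to cytochrome c, 6 of 8 members were higher in each knockout, with medians of 0.11 in both. Uqcrfs1, the Rieske iron-sulphur protein, read 9.73, 9.10 and 9.64 in wild type, against 9.72, 9.73 and 9.73 for CD4-cre and 9.85, 9.76 and 9.75 for Foxp3-cre. Its low value was wild type replicate 2 alone, and the changes of 0.24 and 0.29 (limma adjusted p = 0.483 and 0.278) were 0.041 and 0.097 without it. Uqcr10, a small subunit, read 9.82, 9.85 and 9.46 in wild type and 9.80 or more on each knockout array, so that here replicate 3 was low. It stood at 0.21 for CD4-cre and 0.18 for Foxp3-cre (adjusted p = 0.419 and 0.386), and its other probe sets lay between -0.105 and 0.044. Uqcrb, with the highest mean signal of the 8, stood at 0.12 and 0.055. Uqcrh, the hinge protein, read 11.30, 11.21 and 11.27 in wild type and 11.07, 11.16 and 11.09 in Foxp3-cre, wholly below, with a change of -0.15 (SE 0.07, adjusted p = 0.240).

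Complex IV has subunits with widely expressed forms and forms restricted to muscle, lung or testis. All 9 widely expressed forms were tested, and 4 of the 6 tissue-restricted forms (Cox4i2, Cox6b2, Cox7a1 and Cox8b) were too dim to test. The restricted Cox6a2 and Cox8c read 5.39 to 6.05 and 5.70 to 6.22 over the 9 arrays, close to the threshold of 4.979. Of 10 muscle and heart markers, 0 passed the filter. Of the widely expressed forms, 8 of 9 were higher in CD4-cre and 7 of 9 in Foxp3-cre, with medians of 0.14 and 0.11 (0.072 and 0.089 without wild type replicate 2), and 0 passed. Cox4i1 stood at 0.038 for CD4-cre and -0.048 for Foxp3-cre. Cox6a1, with the highest mean signal of all members, stood at 0.14 and 0.10, and Cox8a at 0.18 and 0.13, or 0.072 and 0.027 without that array. Cox6b1 stood at -0.034 and -0.00056, and at 0.026 and 0.059 without that array, while its other probe set gave 0.17 and 0.15 with 9 arrays. Cox7a2, the widely expressed subunit to which Cox7a2l is related, read 11.28 to 11.47 in wild type, against 11.38 to 11.46 for CD4-cre and 11.34 to 11.49 for Foxp3-cre, with all groups overlapping and changes of 0.045 and 0.054. Cox5a, a matrix-side subunit, stood at 0.28 in Foxp3-cre (limma adjusted p = 0.203) and at 0.17 without that array, and its other probe sets gave 0.075 and 0.014. Cox6c lay wholly above wild type in both knockouts, at 10.80, 10.82 and 10.75 against 10.91 to 10.99, with changes of 0.15 and 0.16 (adjusted p = 0.359 and 0.206). Its other probe set gave -0.17 and -0.052, and -0.021 and 0.10 without wild type replicate 2.

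In the ATP synthase, 12 of 17 members were higher in CD4-cre and 14 in Foxp3-cre, with medians of 0.078 and 0.11 (0.10 and 0.075 without wild type replicate 2), and 0 passed. The 3 genes of the c ring, Atp5g1, Atp5g2 and Atp5g3, encode the same mature protein with different import sequences. Atp5g1 read 8.97, 8.75 and 8.72 in wild type, against 9.10, 9.12 and 9.08 for CD4-cre and 9.33, 9.12 and 9.03 for Foxp3-cre. It lay wholly below both knockouts in wild type, by 0.29 (SE 0.10, limma adjusted p = 0.254) and 0.34 (SE 0.10, adjusted p = 0.0955), and by 0.25 and 0.31 without wild type replicate 2. Atp5g2 read 10.66, 10.18 and 10.52 in wild type, against 10.78, 10.80 and 10.74 for CD4-cre and 10.73, 10.72 and 10.62 for Foxp3-cre, where it overlapped wild type. Atp5g3 lay wholly above wild type in both knockouts, at 12.01 to 12.08 against 12.14 to 12.34, with changes of 0.15 and 0.18. All 3 genes were above wild type on every CD4-cre array, and none was called.

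In the catalytic head of the ATP synthase, Atp5a1 and Atp5b, the alpha and beta subunits, stood at 0.13 and 0.20 in Foxp3-cre and at -0.0021 and 0.045 in CD4-cre. Leaving out wild type replicate 2, they stood at -0.011 and 0.061 in Foxp3-cre and at -0.14 and -0.099 in CD4-cre, so that the direction of Atp5a1 in Foxp3-cre and of Atp5b in CD4-cre turned. Atp5c1, the gamma subunit of the rotating stalk, read 11.20, 10.86 and 10.96 in wild type, against 11.26, 11.25 and 11.25 for CD4-cre and 11.36, 11.27 and 11.27 for Foxp3-cre. It lay wholly above wild type in both, by 0.25 (SE 0.09, limma adjusted p = 0.280) and 0.29 (SE 0.09, adjusted p = 0.113). Without wild type replicate 1, the highest of the 3, it was 1 of the 7 members called higher in Foxp3-cre (beside 5.88% of all genes called in either direction), with Atp5g1, Atp5j, Ndufab1, Ndufb6, Ndufb9 and Sdhb. The delta and epsilon subunits Atp5d and Atp5e stood at -0.075 and -0.065 in Foxp3-cre and at -0.011 and -0.13 in CD4-cre. Without wild type replicate 2 they stood at 0.058 and 0.048 in Foxp3-cre and at 0.12 and -0.013 in CD4-cre, which turned 3 of the 4 directions. In the peripheral stalk, which holds the head still, Atp5j stood at 0.23 and 0.27, Atp5o at 0.13 and 0.17, Atp5pb at -0.076 and 0.11 and Atp5h at 0.056 and -0.033, in CD4-cre and Foxp3-cre in turn. Without that array Atp5j stood at 0.10 and 0.14, Atp5o at 0.18 and 0.21, Atp5pb at -0.15 and 0.040 and Atp5h at 0.015 and -0.074. The small membrane subunits Atp5j2, Atp5k and Atp5l were higher in both, with medians of 0.078 and 0.060 (0.051 and 0.075 without that array), and none passed the test. By other probe sets, Atp5k stood at -0.25 and -0.13 or at 0.017 and 0.015, in CD4-cre and Foxp3-cre in turn. Atp5o stood at -0.37 and -0.015, and Atp5h at -0.16 in both. Atp5a1 stood at -0.24 and -0.072 or at -0.12 and -0.0012. Those of Atp5j2 (0.083 and 0.15), Atp5pb (0.21 and 0.36) and Atp5c1 (0.43 and 0.23) were higher in both. Without wild type replicate 2 the lower Atp5k pair was 0.014 and 0.14, and the Atp5o pair -0.21 and 0.14.

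**Figure D4:**
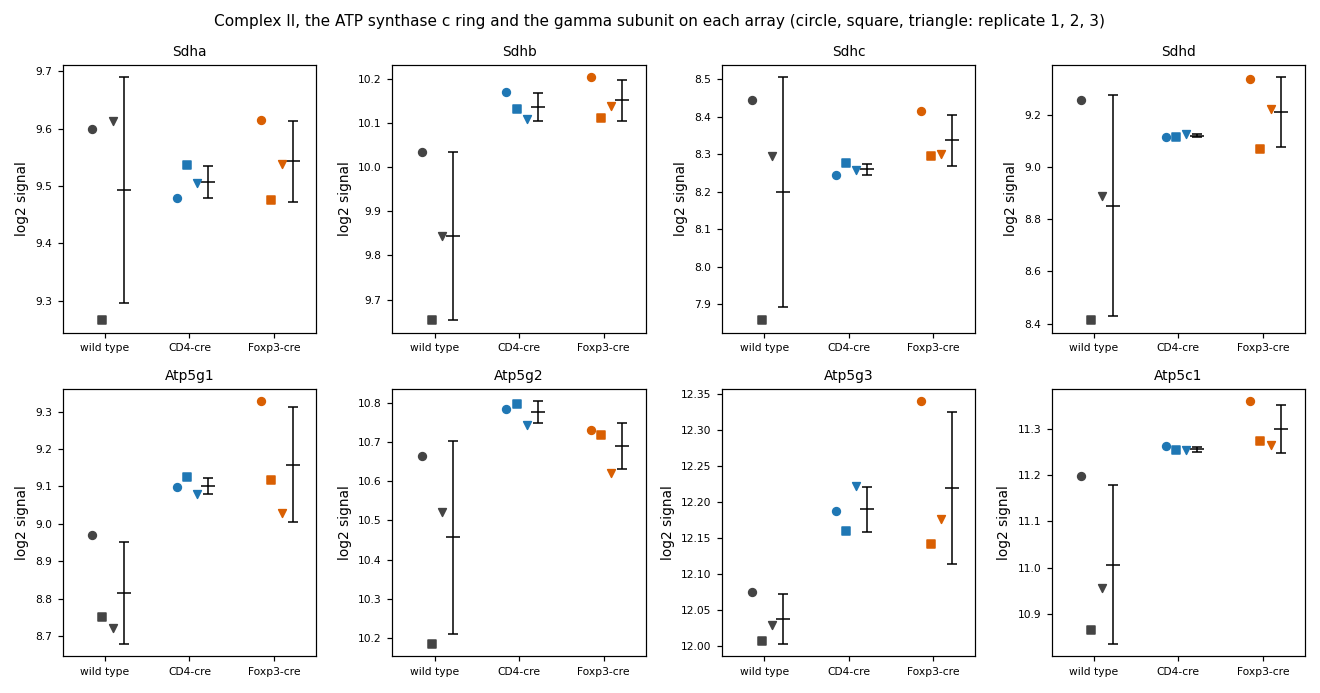
Log2 signal on each array of the 4 complex II genes, the 3 c ring genes and Atp5c1, each panel with its own axis. Circles, squares and triangles are replicates 1, 2 and 3, and the bars are group mean and SD of 3 arrays. The square in wild type, replicate 2, is the lowest value of each complex II gene, and the wild type circle lies within the range of the knockout values for Sdha and Sdhd.

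The members' level varied between the wild type arrays. The mean log2 signal over the 79 members was 9.85, 9.73 and 9.70 in wild type, against 9.84, 9.86 and 9.83 for CD4-cre and 9.91, 9.84 and 9.83 for Foxp3-cre. The group means were 9.76 ± 0.08 for wild type, 9.84 ± 0.01 for CD4-cre and 9.86 ± 0.05 for Foxp3-cre (SD, n = 3 arrays), and wild type replicate 1 lay within the range of the knockout arrays. Replicate 3 of wild type lay below replicate 1 in 71 of 79 members, by a median of 0.15, where over all genes it lay below in 50.6% with a median difference of 0.0032. Foxp3-cre replicate 3 lay below Foxp3-cre replicate 1 in 71 of 79 members too, by a median of 0.099, where over all genes it did so in 59.1% with a median of 0.037.

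Wild type replicates 2 and 3 set the low end of the members in different ways. Replicate 3 lay below all 6 knockout arrays in 55 members (69.6%, against 23.3% of all genes), replicate 2 in 44 (55.7%, against 39.9%) and replicate 1 in 16 (20.3%, against 19.1%). Replicate 2 was spread widely, with 39 members below both other wild type arrays and 26 above both (49.4% and 32.9%, against 49.2% and 35.2% of all genes), from -0.76 for Ndufs1 to 0.63 for Ndufv3 relative to their mean. Over the 9 arrays, replicate 2 was the lowest in 37 members (46.8%, against 35.9% of all genes) and the highest in 21 (26.6%, against 23.5%). Replicate 3 was the lowest in 29 (36.7%, against 10.6%) and the highest in 0. Foxp3-cre replicate 1 was the highest in 32 (40.5%, against 18.8%), and wild type replicate 1 in 11 (13.9%, against 13.4%). The 5' relative to 3' values of beta-actin were -0.45, -1.53 and -0.63 in wild type, against -0.62, -0.65 and -0.57 for CD4-cre and -0.48, -0.68 and -0.52 for Foxp3-cre. The same values of Gapdh were -0.046, -1.10 and -0.36 in wild type, against -0.23, -0.27 and -0.31 for CD4-cre and -0.068, -0.25 and -0.12 for Foxp3-cre. CD4-cre replicate 2 and Foxp3-cre replicate 2 had higher member means than wild type replicate 3. Their beta-actin values were lower than those of that array, and their Gapdh values were higher. Within each group the array with the highest member mean was also the one with the highest cell cycle mean: wild type replicate 1 (7.61), CD4-cre replicate 2 (7.78) and Foxp3-cre replicate 1 (8.73). The order of the other arrays matched in CD4-cre but not in wild type or Foxp3-cre. In wild type, replicate 2 had a lower cell cycle mean than replicate 3 (7.13 against 7.35) and a higher member mean (9.73 against 9.70). In Foxp3-cre, replicate 2 did so too (7.92 against 8.12, and 9.837 against 9.828). The part of the RNA quality and cell cycle differences in the members' spread was not tested. The mitochondrial ribosomal proteins showed a like spread, at 8.28, 8.12 and 8.09 in wild type, against 8.22, 8.25 and 8.20 for CD4-cre and 8.33, 8.21 and 8.20 for Foxp3-cre.

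**Figure D5:**
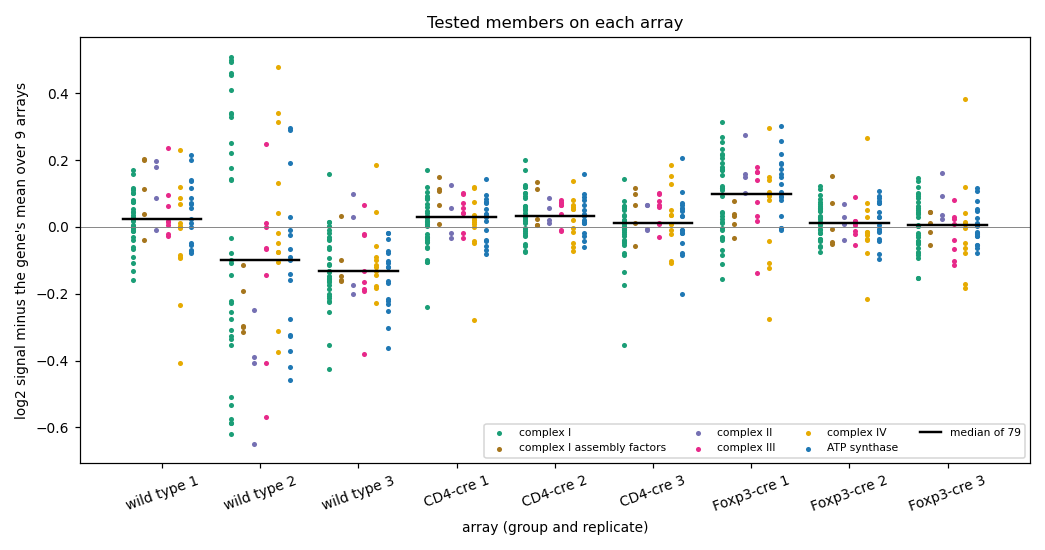
Log2 signal of each of the 79 tested members minus its own mean over the 9 arrays, by array and coloured by complex, with the median as a black line. Wild type replicate 2 has the widest spread, wild type replicate 3 is shifted down for most members, and Foxp3-cre replicate 1 is shifted up.

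Between the knockouts no member was called. In Foxp3-cre minus CD4-cre 46 members were higher and 33 lower, with a median of 0.030 against -0.015 over all genes, and 0 were called, beside 0.0134% of all genes. That direction turned without Foxp3-cre replicate 1, with 32 higher and 47 lower and a median of -0.010, and without CD4-cre replicate 3 the median was 0.0050. Without wild type replicate 2 in the shared fit the count was again 0, beside 0.968%. At an unadjusted p below 0.05 there were 0 members with 9 arrays, where 11.3% of all genes passed. Members with Foxp3-cre wholly above CD4-cre numbered 8, as did those wholly below (10.1% each), beside 10.9% and 18.8% of all genes. The largest difference was that of Ndufc1, a small complex I subunit, at 0.29 (SE 0.16, limma adjusted p = 0.523), with 9.20, 9.46 and 9.09 for CD4-cre against 9.65, 9.49 and 9.48 for Foxp3-cre. Another probe set of Ndufc1 gave 0.12 in this comparison. The lowest difference was that of the testis form Cox8c, at -0.17 (SE 0.13).

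Other mitochondrial genes were read from lists named by function. Over all genes tested, 0.659% were called in CD4-cre and 3.36% in Foxp3-cre, up or down. Without wild type replicate 2 these shares were 2.57% and 7.63%. Of 12 electron carriers and other chain genes 1 rose in Foxp3-cre, Coq7, an enzyme of ubiquinone synthesis, by 0.55 (limma adjusted p = 0.0281), with a list median of 0.13 (0.084 without wild type replicate 2). Of 26 assembly factors outside the symbol rule 1 rose in CD4-cre, Cox18, which inserts a complex IV core subunit, by 0.84 (adjusted p = 0.0262), and 0 in Foxp3-cre. Of 7 adenine nucleotide and phosphate carriers and regulators 1 rose in Foxp3-cre, Atpif1, the ATP synthase inhibitor, by 0.36 (adjusted p = 0.0485). Without wild type replicate 2 the adenine nucleotide carrier Slc25a4 rose there as well, by 0.54 (adjusted p = 0.0383).

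Of 16 genes of the tricarboxylic acid cycle 0 passed in either knockout, with medians of 0.084 and 0.13 (0.013 and 0.10 without wild type replicate 2), and Fh1, fumarase, stood at 0.45 in Foxp3-cre (limma adjusted p = 0.0545). Of 74 mitochondrial ribosomal proteins 1 rose in Foxp3-cre, Mrpl18 by 0.53 (adjusted p = 0.0485), and 1 fell, Mrps5 by 0.45 (adjusted p = 0.0412), with a median of 0.086. Of 20 mitochondrial import genes 0 passed, with medians of 0.055 and 0.059 (0.015 and 0.032 without that array). Of 17 regulators of mitochondrial biogenesis 0 passed with 9 arrays. Nfe2l2, which encodes the antioxidant regulator NRF2, fell without wild type replicate 2, by 0.53 in CD4-cre (adjusted p = 0.00680) and 0.54 in Foxp3-cre (adjusted p = 0.00295), and stood at -0.24 and -0.26 with that array. For comparison, the cell cycle list had a median of 0.83 in Foxp3-cre and 0.34 in CD4-cre, where it had 0 calls.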

How the data were processed

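Total RNA of 9 samples was hybridised to 1 Affymetrix array each. The authors deposited log2 expression values per probe set, made with RMA per the submitters' processing notes; the sources used here do not give its version. RMA brings arrays to a common distribution, so a shift of most genes would not be seen. Of 22690 probe sets 20380 had 1 gene symbol, 691 several and 1555 none (64 were controls); 20351 matched a RefSeq gene ID and 0 symbols changed. Genes were read by their brightest probe set, and 7436 of 12393 at or above the 40th percentile of mean signal (log2 4.979) were tested. Values ran from 1.57 to 14.06, and the number of arrays limits the precision: the median SE of a change was 0.110 over all genes and 0.102 over members.

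Group differences came from limma 3.58.1 (R 4.3.3), from 1 model of 3 groups, moderated (6 residual and 3.369 prior degrees of freedom), with Benjamini-Hochberg adjustment over all genes tested; the fit was tested on simulated data. With 3 arrays against 3, an exact permutation test of 1 gene could not go below 0.1, so none is given. Same-numbered arrays deviated together for wild type and Foxp3-cre (correlations 0.255, 0.201 and 0.253), but not in every pair for wild type and CD4-cre (0.116, -0.006 and 0.226) or the knockouts (0.189, -0.032 and 0.492). Alternatives were the normalization, the filter, the probe set rule, the moderation, array weights, a replicate block, the groups in the fit and leaving out each array. No 2 arrays held identical values.

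Named members were those called, the brightest and most changed of each complex, the isoform families and the Sdh genes; other members are named after their values were seen. The members and lists were chosen with earlier results of these data known. Member symbols found only on probe sets shared with another symbol (8) were not analysed.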

Additional observations from a re-analysis of the deposited data

How the results depend on the processing

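Limits were the 3 arrays per group and wild type replicate 2. In CD4-cre against wild type the 0 called members became 21 (20 higher) with array weights, where 17.5% of all genes were called, and 0 to 1 with 1 array left out. In Foxp3-cre the 1 call became 16 (15 higher) with array weights (20.7% of all genes). With only the 2 groups compared in the fit it became 0, where 16 of 7436 genes were called, against 250 in the main fit. With 1 array left out it was 0 to 8. It was 8 without wild type replicate 1 (5.88% of all genes), and 0 without Foxp3-cre replicate 2 or 3 (162 and 71 genes). Array weights gave wild type replicate 1 a weight of 0.46, replicate 2 0.0824, and replicate 3, the array with the lowest member mean, 2.41. The wild type side of the weighted counts thus rested mostly on replicate 3. For the mean of both knockouts the 1 call became 2 at the 60th percentile filter, 2 with the mean over probe sets, 2 with trended robust moderation, 24 (23 higher) with array weights (21.6% of all genes), and 0 to 6 with 1 array left out, 6 without wild type replicate 1 (3.25%). Median changes with 1 array left out ran from 0.072 to 0.14 in CD4-cre, 0.063 to 0.14 in Foxp3-cre, 0.074 to 0.16 for both, and -0.010 to 0.039 between the knockouts. The cause of these moves was not tested. The replicate block, which pairs same-numbered arrays, gave an adjusted p of 0.0222 for Cox7a2l in Foxp3-cre (limma; range over all its alternatives 0.00211 to 0.111) and left the counts at 0, 1, 0 and 1. The other Cox7a2l probe sets were added after seeing the data. No called result reversed under any alternative run, and the median between the knockouts turned sign without Foxp3-cre replicate 1.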
